A study of Mus musculus with 2 samples.

Results

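The genes described here are 9 markers and drivers of the mesenchymal state: the transcription factors Zeb1, Zeb2, Snai1, Snai2, Twist1, Twist2 and Prrx1, the intermediate filament protein vimentin (Vim) and the cell adhesion protein N-cadherin (Cdh2). They were chosen by name, and all 9 were found among the 32285 gene rows of the files. Live CD45- cells were sorted from 1 Dll1+ and 1 Dll1- mouse mammary tumor and profiled with droplet single-cell RNA sequencing (10x Genomics, version 3 chemistry). Both tumors were untreated controls and were dissociated with collagenase and hyaluronidase, then trypsin and dispase. Dll1 is a ligand of Notch receptors, and CD45 is carried by leukocytes. The labels use Dll1+ and Dll1- both for the tumor and for the sorted cells. The sources used here do not give the mouse strain, the age of the animals, the origin of the tumors or the way in which a tumor was assigned to a group. Each group is a single library, so every difference below is between 2 libraries, with no replicate check and no test.

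Epithelial cells hold to each other through E-cadherin and keratins, and they can turn towards a motile, mesenchymal state in development, wound healing and tumors. Factors of the Zeb, Snail and Twist families bind E-box motifs in the promoters of epithelial genes such as Cdh1 and repress them, while Vim and Cdh2 are products that mesenchymal cells carry. The same factors are normal parts of fibroblasts, of the mural cells of vessels and of neural crest derivatives, so their transcripts in a tumor can come from stroma as well as from tumor cells. In epithelial cells, microRNAs of the miR-200 family and miR-205 restrain Zeb1 and Zeb2, and Zeb proteins repress the miR-200 genes in turn.

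The mature microRNAs are shown because their seeds, bases 2 to 8 in capitals, name the sites that the Zeb2 transcript carries. The sequences are from RefSeq (GRCm38.p6, the mm10 assembly). The first 3 share the seed AAUACUG, the next 2 share AACACUG, and miR-205-5p has a seed of its own.
mmu-miR-200b-3p: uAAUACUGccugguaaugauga
mmu-miR-200c-3p: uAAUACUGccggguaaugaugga
mmu-miR-429-3p: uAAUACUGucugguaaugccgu
mmu-miR-200a-3p: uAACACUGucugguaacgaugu
mmu-miR-141-3p: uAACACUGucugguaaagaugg
mmu-miR-205-5p: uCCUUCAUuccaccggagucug
The genes of miR-200b, miR-200a and miR-429 lie together on chromosome 4 (miR-200b-3p at chr4:156055685-156055706, minus strand), and those of miR-200c and miR-141 lie on chromosome 6 (miR-200c-3p at chr6:124718324-124718346, minus strand). The mir-205 gene is on chromosome 1 (miR-205-5p at chr1:193507503-193507524, minus strand).

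Zeb2 (chr2:44983632-45117395, minus strand, mm10) has a 3′ untranslated region of 4941 bases in its longest annotated transcript (GENCODE M21). It holds 5 matches to CAGTATT, the complement of the first seed, and 4 to CAGTGTT, the complement of the second. A match of each kind is given with the bases around it and the seed match in capitals, at chr2:44988098-44988126 and chr2:44987815-44987843 (both read on the minus strand).
Zeb2 site for the first seed: ctacagtgcatCAGTATTacgattcctca
Zeb2 site for the second seed: ccatccttgtaCAGTGTTcagagggtaac
These are matches of letters, and binding was not measured.

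Of the 9 members, 6 were matched to RefSeq promoter windows, which were searched for E-boxes (Zeb2, Snai1, Twist1, Twist2, Prrx1 and Vim). The window ran from 250 bases before to 50 bases after the annotated start, and the motif searched was CANNTG, which reads the same on both strands. Only the Snai1 window held one, and it is printed for that reason (chr2:167537945-167538244, plus strand). The capitals mark the E-box CACCTG, which begins at position -126 from the start.
Snai1 promoter: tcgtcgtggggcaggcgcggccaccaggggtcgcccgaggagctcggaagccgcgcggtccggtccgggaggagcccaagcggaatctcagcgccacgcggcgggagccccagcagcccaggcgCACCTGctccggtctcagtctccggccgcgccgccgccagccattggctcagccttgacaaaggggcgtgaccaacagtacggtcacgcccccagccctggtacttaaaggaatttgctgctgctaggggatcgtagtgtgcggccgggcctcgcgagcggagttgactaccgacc
Across 32851 promoter windows of the same length, 72.3% held CANNTG and 20.2% held CACCTG or its complement CAGGTG. The absence of these letters from the other 5 members' windows says nothing about binding elsewhere.

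The files held 117230907 unique molecular identifiers (UMIs, tags that each mark 1 captured molecule) over 13819 Dll1+ barcodes and 135960457 over 13097 Dll1- barcodes. Filters left 9685 Dll1+ cells with a median of 7882 UMIs and 10132 Dll1- cells with a median of 9904. They formed epithelial-like cells (8205 Dll1+ and 8689 Dll1-), fibroblast-like cells (355 and 586), pericyte-like cells (406 and 175), endothelial-like cells (254 and 280), and a class led by Krt5 that carried basal as well as skin and hair keratinocyte genes (329 and 312). A further 21 Dll1+ and 6 Dll1- cells were macrophage-like. Every class was named from marker genes and is called "-like" for that reason. Dll1 itself had 4916 UMIs in the Dll1+ library, found in 26.9% of cells, and 710 UMIs in the Dll1- library, found in 4.63%. Krt5-led cells held Dll1 in both, in 52.0% of Dll1+ and 40.1% of Dll1- cells. Ptprc, which encodes CD45, was detected in 23 Dll1+ and 7 Dll1- cells. The stain of the sort also held an antibody to CD31, the product of Pecam1, and Pecam1 was found in 91.7% and 93.6% of the endothelial-like cells. What the antibody did to their number was not tested. Of all cells kept, 57 Dll1+ and 61 Dll1- cells had a barcode found in both libraries.

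Levels are CPM, the UMIs of a gene scaled to a fixed total of UMIs in its class and library, with 95% Poisson intervals in brackets that cover counting error only. They are not divided by gene length, because a UMI marks the 3′ end of a molecule. Levels of different genes are on that same scale but may differ in capture.

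The Zeb pair was split by cell type, with endothelium holding Zeb1 and mural cells mostly Zeb2. Zeb1, a zinc finger and homeodomain repressor, was highest in endothelial-like cells, at 178 CPM (157 to 202) in the Dll1+ and 178 CPM (156 to 203) in the Dll1- library. In pericyte-like cells it stood at 83.1 and 55.5 CPM, and in fibroblast-like cells at 69.9 and 105 CPM. Epithelial-like cells had 0.601 Dll1+ and 0.361 Dll1- CPM, from 50 and 38 UMIs. Krt5-led cells held 12 UMIs in the Dll1+ library and 0 in the Dll1- library. The order of fibroblast-like and pericyte-like cells differed between the libraries, and in the Dll1+ library their intervals overlapped.

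Zeb2, the paralog of Zeb1, was highest in pericyte-like cells, at 384 CPM (361 to 408) in the Dll1+ and 341 CPM (307 to 378) in the Dll1- library. Fibroblast-like cells came next with 156 and 198 CPM. A sub-state of 39 Dll1+ cells, with the mural genes Pdgfrb and Rgs5 among its leading genes, was moved out of the endothelial-like class before counting. The endothelial-like cells that stayed held only 3 Dll1+ and 1 Dll1- UMIs of Zeb2. Zeb1 made up 98.8% (96.6 to 99.8) and 99.6% (lower bound 97.7) of the UMIs of the pair there. In fibroblast-like cells that share was 31.0% and 34.7%, and in pericyte-like cells 17.8% and 14.0%. The few macrophage-like cells had 59 and 15 UMIs of Zeb2 and none of Zeb1. Of all Zeb2 UMIs, pericyte-like and fibroblast-like cells held 55.6% and 28.4% in the Dll1+ library, against 29.1% and 66.0% in the Dll1- library. The 2 tumors also differed in the numbers of these cells. Zeb2os, annotated opposite to Zeb2, was counted at 6.43 and 4.97 CPM in fibroblast-like cells and 6.98 and 2.78 CPM in pericyte-like cells. The strand setting of the counting is not stated, so reads of this overlapping pair may not be fully separated.

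Transcripts that span or host the miR-200 and miR-205 genes were low and lay mostly in epithelial-like or Krt5-led cells. Gm13648, which spans the miR-200b, miR-200a and miR-429 genes, had 160 UMIs (1.92 CPM) in Dll1+ and 110 UMIs (1.04 CPM) in Dll1- epithelial-like cells. It had 0 UMIs in the fibroblast-like, pericyte-like and endothelial-like cells of both libraries, where 3 UMIs would have been 0.711 to 2.78 CPM. A level like that of the epithelial-like cells of the same library was therefore above this limit in fibroblast-like cells and in Dll1+ pericyte-like cells, and below it in Dll1- pericyte-like and in endothelial-like cells. Mir205hg, the host transcript of miR-205, reached 41.1 and 51.7 CPM in Krt5-led cells, against 0.95 and 0.769 CPM in epithelial-like cells, with 2 UMIs in Dll1+ fibroblast-like and 1 in Dll1+ pericyte-like cells. Gm15884, at the miR-200c and miR-141 genes, had 7 and 6 UMIs in epithelial-like cells, 1 in Dll1+ pericyte-like cells and 0 in Krt5-led cells. The level of a host transcript is not the level of the mature microRNA, which was not measured.

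**Figure D1:**
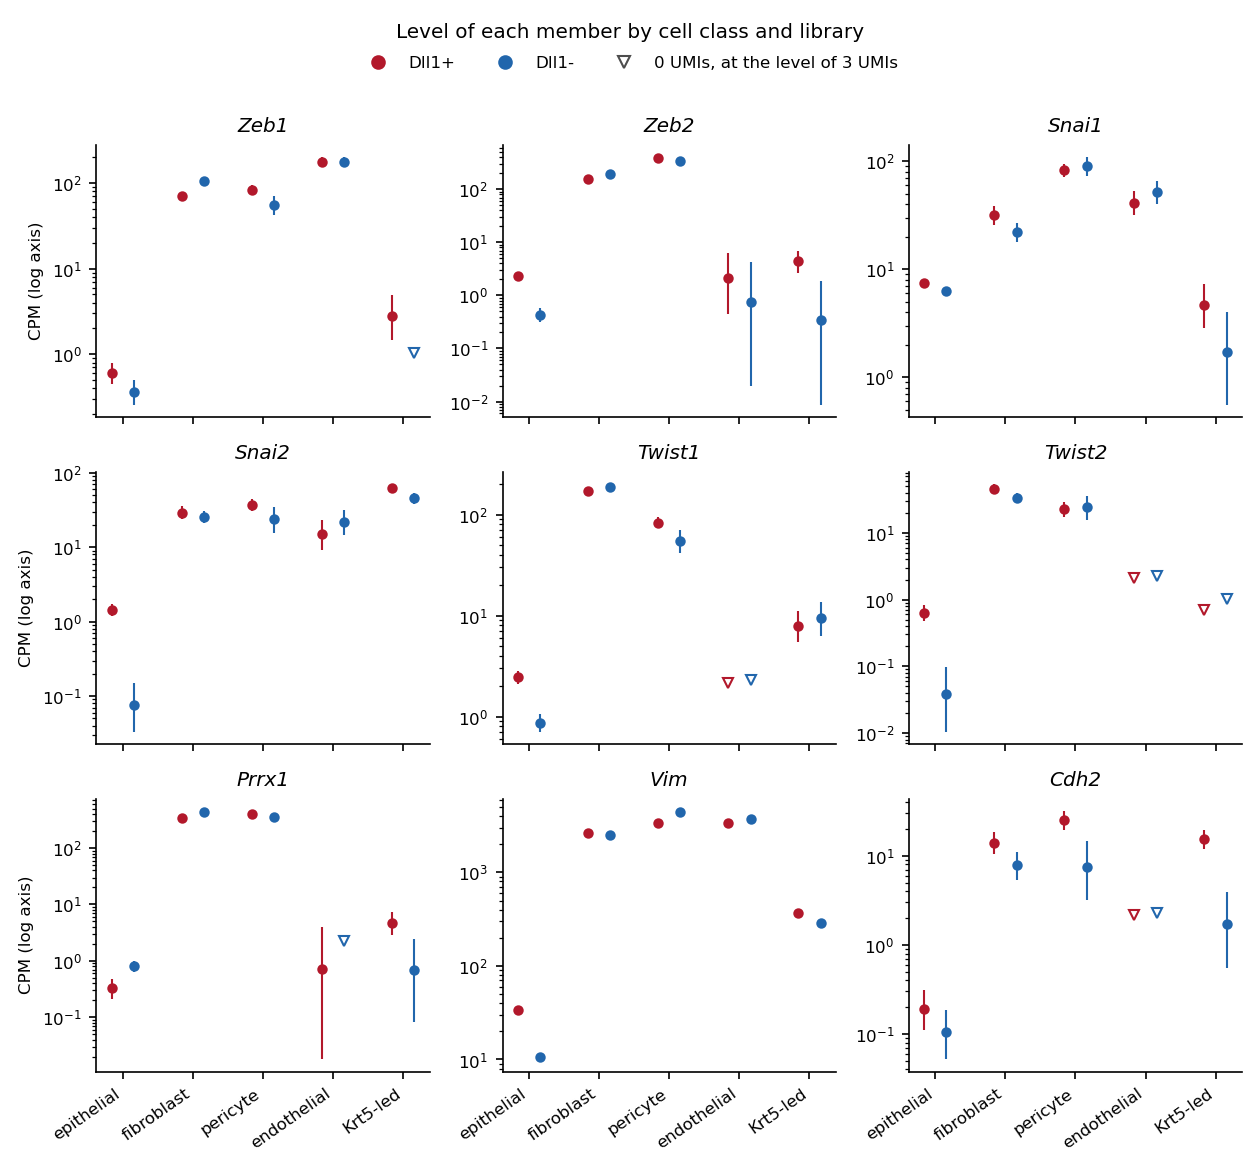
Level of each of the 9 genes in CPM (log axis) in 5 cell classes, Dll1+ library in red on the left and Dll1- library in blue on the right of each pair. Points are levels, bars are 95% Poisson intervals for counting error only, and open triangles mark 0 UMIs and stand at the level that 3 UMIs would give. Vim, Zeb2, Twist1 and Prrx1 are highest in stromal classes, and Snai2 is highest in Krt5-led cells.

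Of the Snail pair, Snai1 was highest in pericyte-like and Snai2 in Krt5-led cells. Snai1, a zinc finger repressor of Cdh1, was highest in pericyte-like cells, at 82.3 CPM (71.9 to 93.9) in the Dll1+ and 89.8 CPM (72.8 to 109) in the Dll1- library. It was at 41.4 and 51.8 CPM in endothelial-like cells and at 31.6 and 22.0 CPM in fibroblast-like cells. Epithelial-like cells had 7.43 CPM (6.86 to 8.04) and 6.24 CPM (5.77 to 6.74), from 618 and 657 UMIs in 471 and 510 cells. Because there were so many of these cells, they held 59.5% of all Dll1+ and 71.4% of all Dll1- Snai1 UMIs, the only one of the 7 factors with most of its UMIs in epithelial-like cells. Up to 8 and 7 Snai1 UMIs were counted in a single epithelial-like cell. With every cell thinned to 2000 UMIs, 1.29% (1.05 to 1.57) of Dll1+ and 1.31% (1.08 to 1.58) of Dll1- epithelial-like cells had a Snai1 UMI.

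Free RNA in droplets can place stromal transcripts in other cells, and its make-up was not measured. The ratios of a member to Vim given next describe the classes only. For each 100 Vim UMIs, epithelial-like cells held 22.0 Snai1 UMIs (20.2 to 24.0) in the Dll1+ and 58.4 (53.0 to 64.4) in the Dll1- library. The same ratio was 1.2 and 0.886 in fibroblast-like, 2.44 and 2.05 in pericyte-like and 1.23 and 1.39 in endothelial-like cells. Epithelial-like cells thus held more Snai1 for their Vim than any stromal class, with intervals that did not overlap. For Twist1 the epithelial-like ratios, 7.27 and 8.18, overlapped in their intervals with the fibroblast-like ones, 6.47 and 7.53. The Dll1+ ratios depend on few cells for their Vim count. In that library 43 epithelial-like cells with at least 10 Vim UMIs held 1227 of the 2807 Vim UMIs. They held 6 of the 204 Twist1 and 23 of the 618 Snai1 UMIs. The part of free RNA in these levels was not tested.

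Snai2, which encodes Slug and is known as a factor of basal mammary cells, was highest in Krt5-led cells, at 62.7 CPM (55.4 to 70.7) in the Dll1+ and 45.3 CPM (37.9 to 53.7) in the Dll1- library. Pericyte-like cells had 37.1 and 24.1 CPM, fibroblast-like cells 29.2 and 25.6 CPM, and endothelial-like cells 15 and 22.1 CPM. Pericyte-like and fibroblast-like cells did not differ beyond their intervals in either library. Snai1 made up 6.97% (4.31 to 10.6) and 3.62% (1.19 to 8.25) of the UMIs of this pair in Krt5-led cells, against 84.0% (81.1 to 86.5) and 98.8% (97.6 to 99.5) in epithelial-like cells. The share was near even in fibroblast-like cells, at 51.9% (44.9 to 58.9) and 46.3% (39.2 to 53.4), and higher in pericyte-like cells, at 68.9% and 78.9%.

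**Figure D2:**
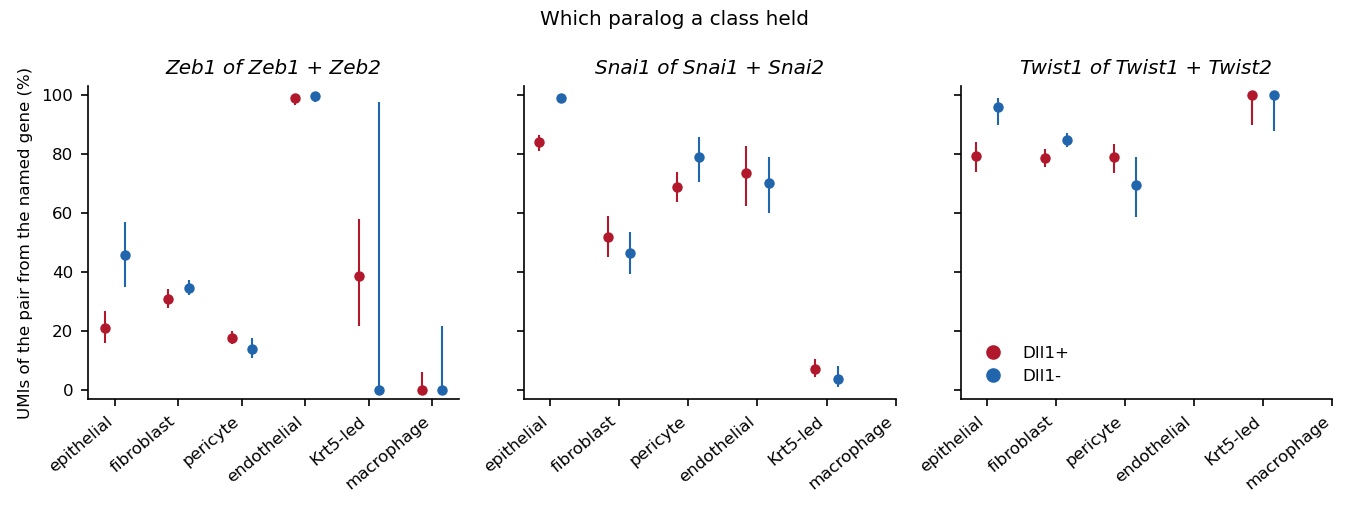
Share of the UMIs of a paralog pair that came from the first gene (vertical axis, percent), by cell class, Dll1+ in red on the left and Dll1- in blue on the right. Bars are exact 95% binomial intervals, and a class with no UMI of either gene has no point. Endothelial-like cells held almost only Zeb1 of the Zeb pair, and Krt5-led cells mostly Snai2 of the Snail pair.

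The Twist factors and Prrx1 marked fibroblast-like and pericyte-like cells and were almost undetected in endothelial-like cells. Twist1, a basic helix-loop-helix factor, stood at 171 CPM (157 to 185) in Dll1+ and 187 CPM (174 to 201) in Dll1- fibroblast-like cells. It stood at 83.4 and 54.6 CPM in pericyte-like cells and at 7.98 and 9.53 CPM in Krt5-led cells. Not a single Twist1 UMI was found in 254 Dll1+ and 280 Dll1- endothelial-like cells, where 3 UMIs would be 2.14 and 2.28 CPM. Twist2, its close paralog known from dermal fibroblasts, had 46.2 CPM (39.3 to 54.0) and 33.4 CPM (28.1 to 39.4) in fibroblast-like cells and 22.4 and 24.1 CPM in pericyte-like cells. It had 0 UMIs in endothelial-like and in Krt5-led cells of both libraries. Twist1 gave 78.7% and 84.9% of the pair's UMIs in fibroblast-like and 78.8% and 69.4% in pericyte-like cells.

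Prrx1, a homeobox factor of limb and connective tissue mesenchyme, was high in both classes, with an order that differed between the libraries. Pericyte-like cells had 398 CPM (374 to 422) in the Dll1+ and 361 CPM (326 to 399) in the Dll1- library. Fibroblast-like cells had 338 CPM (319 to 358) and 431 CPM (411 to 451). Endothelial-like cells held 1 and 0 UMIs, counted without the 39 Dll1+ cells that were moved out of the class. Epithelial-like cells had 0.325 CPM (0.214 to 0.472) and 0.798 CPM (0.636 to 0.988), 27 and 84 UMIs.

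Vim, which encodes the main intermediate filament protein of mesenchymal cells, stood at 3376 and 4389 CPM in pericyte-like, 3375 and 3726 CPM in endothelial-like and 2641 and 2486 CPM in fibroblast-like cells. Krt5-led cells had 367 CPM (349 to 386) and 289 CPM (270 to 309), and epithelial-like cells 33.7 CPM (32.5 to 35) and 10.7 CPM (10.1 to 11.3). A Vim UMI was seen in 99.7% and 97.6% of fibroblast-like cells but in 12.1% and 7.26% of epithelial-like cells. Thinned to 2000 UMIs, the epithelial-like shares were 3.62% (3.21 to 4.07) and 1.61% (1.35 to 1.90).

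Cdh2, a cadherin of neural and mesenchymal cells, was low throughout. Pericyte-like cells had 25.0 CPM (19.4 to 31.7) in the Dll1+ and 7.40 CPM (3.20 to 14.6) in the Dll1- library, fibroblast-like cells 14.0 and 7.82 CPM, and Krt5-led cells 15.3 and 1.70 CPM. Endothelial-like cells, which join through VE-cadherin (Cdh5, 1263 and 1057 CPM there), had 0 Cdh2 UMIs. Epithelial-like cells, with Cdh1 at 143 and 191 CPM, had 16 and 11 Cdh2 UMIs. The Cdh2 level of epithelial-like cells was the lowest among classes with a UMI in both libraries, at 0.192 and 0.104 CPM.

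Single fibroblast-like and pericyte-like cells held several factors at once. Of fibroblast-like cells thinned to 2000 UMIs, 134 of 342 Dll1+ and 266 of 559 Dll1- cells had UMIs of at least 2 of the 7 factors, and 12.0% and 17.4% had 3 or more. Of pericyte-like cells, 168 of 348 and 70 of 167 had at least 2, and 15.5% and 12.6% had 3 or more. Endothelial-like cells reached 2 or more in 7 of 219 and 11 of 227 cells. In Krt5-led cells it was 2 of 321 and 1 of 303, and in epithelial-like cells 2 of 7595 and 0 of 8458. Thinning left out 610 Dll1+ and 231 Dll1- epithelial-like cells that were shallower than 2000 UMIs.

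Co-detection beyond the class level was seen for 1 pair in 1 library. Of 144 comparisons between factors within a class and library, each between cells with and without a UMI of the first, 2 had intervals that did not overlap, and both were the Zeb pair in the same Dll1- fibroblast-like cells, taken in each direction. No comparison showed the opposite, and this count was made after the values were seen. The parts of sub-states within a class and of the number of comparisons in it were not tested. Among Dll1- fibroblast-like cells, 27.1% (20.5 to 34.4) of those with a Zeb2 UMI also had a Zeb1 UMI, against 15.9% (12.4 to 19.96) of those without. Among Dll1+ fibroblast-like cells the same shares were 11.1% (4.92 to 20.7) and 13.7% (9.84 to 18.4).

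**Figure D3:**
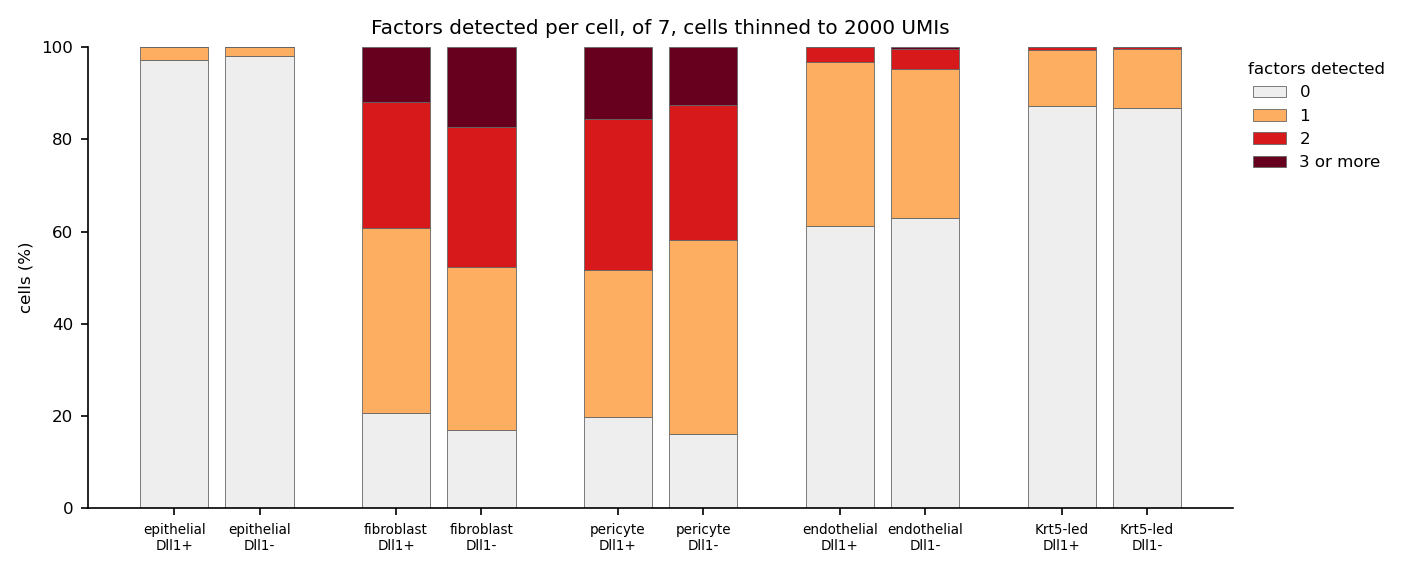
Share of cells (vertical axis, percent) with 0, 1, 2 or at least 3 of the 7 factors detected, each cell thinned to 2000 UMIs, by class with the Dll1+ bar left of the Dll1- bar. The bars of fibroblast-like and pericyte-like cells reach 2 or more factors in many cells, and those of epithelial-like cells almost never do.

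The Dll1+ and Dll1- libraries were then compared within each class. Genes with 30 UMIs or more, both libraries added up, counted as measured, and a gene was called higher or lower where the ratio of CPM + 1, Dll1+ over Dll1-, passed 1.5-fold. Bounds given with a log2 ratio are exact 95% binomial bounds of the ratio without the added 1 and cover counting error only, so for genes at low levels they can lie beyond the printed ratio.

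In epithelial-like cells 5 of the 8 measured members were higher in the Dll1+ library and none was lower. Over all 15261 genes measured in these cells, 20.6% were called higher and 5.66% lower. The median log2 ratio was 0.77 for the members and 0.20 for all genes. Vim was called at 33.7 against 10.7 CPM (log2 ratio 1.57, bounds 1.56 to 1.76). Zeb2 had 2.27 CPM (1.96 to 2.62) in Dll1+ and 0.427 CPM (0.312 to 0.572) in Dll1- cells, a log2 ratio of 1.2 (bounds 1.93 to 2.91). Snai2 had 118 UMIs (1.42 CPM) against 8 (0.0760 CPM), and Twist2 had 53 (0.637 CPM) against 4 (0.0380 CPM). Twist1 had 2.45 CPM (2.13 to 2.81) against 0.874 CPM (0.704 to 1.07), a log2 ratio of 0.88.

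The remaining members did not pass the fold. Snai1, the factor with the most epithelial-like UMIs, had a log2 ratio of 0.22 (bounds 0.09 to 0.41), near the median of all genes. Zeb1 had a log2 ratio of 0.23 (bounds 0.10 to 1.38). Prrx1 went the other way with a log2 ratio of -0.44 (bounds -1.98 to -0.66). At such low levels the added 1 CPM shrinks a ratio. With an added 10 CPM only Vim was called, at a log2 ratio of 1.08. Without any added CPM, 6 members were higher (Zeb1 at 0.74 as the sixth) and Prrx1 was called lower at -1.30. TMM and median-of-ratios scaling shifted the ratio of the libraries' scaling by -0.26 and -0.31 on the log2 scale, which moved Vim to 1.33 and 1.28 and genes at low CPM by less, and left the same 5 members called.

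Fibroblast, mural and endothelial markers were also higher in the Dll1+ epithelial-like cells, and their part in these differences was not tested. Neutrophil markers (180 against 556 CPM) and skin and hair keratinocyte markers (136 against 308 CPM) were lower there. The 10 fibroblast markers, all detected in both libraries, summed to 91.2 CPM in Dll1+ and 35.4 CPM in Dll1- cells. Pdpn, a gene of that list, was also among the leading genes of an epithelial-like sub-state of 2242 Dll1+ and 2 Dll1- cells. The sum may therefore not stand for fibroblast transcripts alone. The 10 pericyte and mural markers summed to 33.4 and 16.6 CPM and the 10 endothelial markers to 20.6 and 15 CPM. A split was also made by the share of UMIs from the markers of all other classes together. That share included basal markers (431 and 276 CPM) and the neutrophil and keratinocyte markers, each list with more CPM than the fibroblast list. Among epithelial-like cells at or below the median of that share, the Vim log2 ratio was 1.71 and the same 5 members were called. Prrx1, which fibroblast-like cells held at 12.8 UMIs per 100 Vim UMIs in the Dll1+ library, was at 0.962 per 100 in the Dll1+ epithelial-like cells. Twist1 and Twist2 ran at 7.27 and 1.89 per 100 Vim UMIs there, against 6.47 and 1.75 in the Dll1+ fibroblast-like cells. Snai2 ran at 4.20 (3.47 to 5.06) against 1.11 (0.900 to 1.35). These Dll1+ ratios depend on few cells for their Vim count. The 43 Dll1+ epithelial-like cells with at least 10 Vim UMIs held 1227 of the 2807 Vim UMIs. They held 6 of the 204 Twist1 and 0 of the 53 Twist2 UMIs. In the Dll1- library Twist1 was at 8.18 in epithelial-like against 7.53 in fibroblast-like cells. Twist2 was at 0.356 (0.0967 to 0.913) against 1.34 (1.13 to 1.59) there.

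Much of the epithelial-like Vim lay in few cells. In the Dll1+ library 43 of 8205 cells (0.524%) had at least 10 Vim UMIs and held 43.7% of the class's Vim UMIs. In the Dll1- library 11 of 8689 cells (0.127%) did, with 19% of the Vim UMIs. The highest counts in a single cell were 165 and 41. Without these cells the log2 ratio of Vim was 1.06, and the same 5 members were called.

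Some other members were also higher in those 43 Dll1+ cells than in the rest, and others were not. Zeb2 stood at 40.4 CPM in them (30 UMIs, of 189 in all Dll1+ epithelial-like cells), against 2.61 CPM in cells with 1 to 9 Vim UMIs and 1.80 CPM in cells with none. Snai1 stood at 31.0, 8.99 and 6.89 CPM in these groups, and Twist1 at 8.08, 2.54 and 2.38 CPM. Snai2 stood at 1.35, 1.92 and 1.33 CPM, and Twist2 had 0 UMIs in the 43 cells. They kept keratin and Epcam transcripts: Krt8 was at 1697, 2301 and 2587 CPM and Epcam at 958, 1083 and 1168 CPM. None of the 43 had a UMI of Ptprc, and the fibroblast markers summed to 179, 114 and 86.0 CPM and the endothelial markers to 44.4, 21.9 and 20.1 CPM, with Col1a1 at 8.08, 12.9 and 8.59 CPM. Col1a2 (2.69, 10.9 and 7.36 CPM) and Col3a1 (9.43, 18.6 and 14.0 CPM) were also lowest in the 43 cells. The same held for pericyte and mural markers (24.2, 33.7 and 33.4 CPM) and macrophage markers (9.43, 26.8 and 14.6 CPM). Igfbp7, a secreted protein of vessels and stroma, was at 427, 39.8 and 17.8 CPM, and Sparc, a matrix protein, at 276, 47.9 and 31.4 CPM. Skeletal muscle markers summed to 60.6, 8.91 and 7.03 CPM. The median doublet score was 0.0570 in the 43 cells and 0.0422 in cells with no Vim UMI. These cells were picked by their Vim count, so the values describe them and compare nothing else.

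The 11 Dll1- cells differed from those 43 in some genes and were like them in others. They held 0 UMIs of Zeb2 and 9 of Snai1 (35.5 CPM). Their fibroblast markers summed to 899 CPM, against 28.3 CPM in Dll1- cells without Vim, and Col3a1 was at 426 against 9.26 CPM. Igfbp7 (331 against 11.1 CPM) and Sparc (461 against 6.22 CPM) were high in them, as in the 43 Dll1+ cells.

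The sub-states behind these sums were largely held by 1 library. Sub-state 1 of the epithelial-like cells (led by Prpmp5, Tmem213 and Atp6v0a4) had 4182 Dll1+ and 2 Dll1- cells, and sub-state 3 (Ptn, Pdpn and Rbp7) had 2242 and 2. Vim stood at 37.6 and 38.3 CPM in the Dll1+ cells of these 2 states, and Snai2 at 2.38 and 1.26 CPM. In sub-state 0 (Rec8, Lalba and Saa1), which both libraries filled with 1376 Dll1+ and 5066 Dll1- cells, Vim was at 11.8 and 9.66 CPM and Zeb2 at 0.406 and 0.330 CPM. In sub-state 2 (Fxyd5, Fermt1 and Lgals3; 274 and 3039 cells) Vim was at 106 CPM (93.9 to 119) against 10.6 CPM (9.50 to 11.9), Snai1 at 23.7 CPM against 9.24 CPM, and Zeb2 at 4.88 CPM against 0.479 CPM. There, 6 Dll1+ cells with at least 10 Vim UMIs held 69.1% of the Dll1+ Vim UMIs. In the cycling sub-state 4 (131 and 580 cells) the order was turned, with Vim at 8.39 CPM (5.26 to 12.7) in Dll1+ and 16.0 CPM (13.9 to 18.4) in Dll1- cells. When the 3 that had 50 or more cells from both tumors were weighted alike, the Vim log2 ratio was 1.71 and Snai1 was called, while Snai2 and Twist2 had under 30 UMIs there and were not measured.

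**Figure D4:**
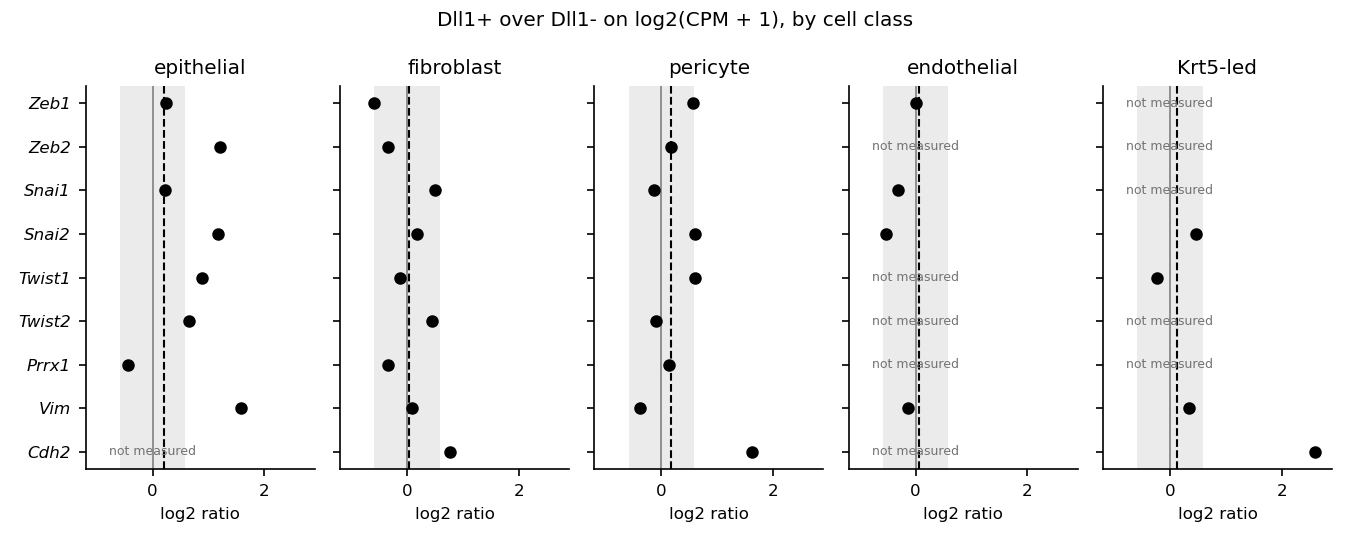
Log2 ratio of CPM + 1, Dll1+ over Dll1-, for each measured member (rows) in each class (panels). The grey band marks less than 1.5-fold, the dashed line is the median of all genes measured in the class, and members with under 30 UMIs are marked as not measured. Of the epithelial-like points, 5 lie right of the band, and those of endothelial-like cells all lie within it.

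In fibroblast-like cells 1 of 9 measured members, Cdh2, was higher in the Dll1+ library (14.0 CPM, 48 UMIs, against 7.82 CPM, 33 UMIs; log2 ratio 0.77, bounds 0.17 to 1.53) and none was lower. Over all genes there, 8.92% were called higher and 5% lower, and the median log2 ratio was 0.09 for the members and 0.04 for all genes. The Cdh2 difference turned to a log2 ratio of -0.06 when the sub-states shared by both libraries were weighted alike. Zeb1 was nearest to being called lower, at 69.9 CPM (61.3 to 79.3) against 105 CPM (95.6 to 115), a log2 ratio of -0.58 (bounds -0.82 to -0.36), and it was called lower with TMM scaling. Zeb2 and Prrx1 had log2 ratios of -0.35 each, with bounds that left out 0, while Snai1 and Twist2 were on the other side at 0.50 and 0.46.

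Sub-state 5 of the fibroblast-like cells (19 Dll1+ and 13 Dll1- cells) was led by Csn3, Ehf and Krt18, and epithelial markers summed to 3256 and 8619 CPM there. Without it Cdh2 was still the member called, at 0.76, and Zeb1 stood at -0.56. All fibroblast-like sub-states shared by the libraries held Zeb1, Zeb2 and Twist1. Sub-state 2 (Mgp, Igfbp2 and Cdkn2b; 139 and 43 cells) had Zeb1 at 50.7 and 80.7 CPM, Zeb2 at 124 and 124 CPM and Twist1 at 191 and 171 CPM. Sub-state 1 (Apoe, Col28a1 and Ccl19; 96 and 137 cells) had Zeb1 at 89.4 and 89.7 CPM and Zeb2 at 181 and 209 CPM. Snai1 ranged more, with 35.2 and 43.5 CPM in sub-state 2 against 12.3 and 15.7 CPM in sub-state 3 (Aqp1, Il1rl1 and Ccl2; 73 and 54 cells). Their intervals overlapped in the Dll1- and not in the Dll1+ library.

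In pericyte-like cells 3 of 9 measured members were higher in the Dll1+ library and none was lower, with 19.7% of all genes called higher and 3.63% lower. The median log2 ratio was 0.17 for the members and 0.17 for all genes. Cdh2 had 25.0 CPM (68 UMIs) against 7.40 CPM (8 UMIs), a log2 ratio of 1.63 (bounds 0.70 to 3.02). Snai2 and Twist1 were just past the fold with log2 ratios of 0.61 (bounds -0.01 to 1.31) and 0.60 (bounds 0.19 to 1.05), and Zeb1 was just short of it at 0.57 (bounds 0.16 to 1.02). With TMM scaling, whose factors shifted by -0.15 on the log2 scale, only Cdh2 was called. Vim had a log2 ratio of -0.38 (bounds -0.43 to -0.33), which turned to 0.26 with shared sub-states weighted alike and to 0.50 with doublets left in.

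Some of the Dll1+ pericyte-like cells carried epithelial genes. Sub-state 3 (led by Prpmp5, Ehf and Fetub among others) held 95 Dll1+ and 4 Dll1- cells with medians of 2101 and 9617 UMIs, and epithelial markers summed to 5487 and 5689 CPM there. Zeb2 was at 69.6 CPM in its Dll1+ cells, against 609 CPM in the Dll1+ cells of sub-state 0 (Galnt16, Tnc and Carmn), and Vim at 925 against 3751 CPM. Without sub-state 3, the log2 ratios were 0.83 for Twist1, 0.77 for Zeb1, 0.75 for Snai2 and -0.20 for Vim, and 4 members were called higher. In sub-state 0, which had 135 Dll1+ and 51 Dll1- cells, Zeb2 was at 609 CPM (558 to 664) against 405 CPM (329 to 494).

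Endothelial-like cells were measured for 4 members (Zeb1, Snai1, Snai2 and Vim), and none was called in either direction, against 9.88% of genes called higher and 4.38% lower. Zeb1 had a log2 ratio of 0.00 (bounds -0.26 to 0.26), so a difference of 1.5-fold lay outside its counting interval. Vim had -0.14 (bounds -0.20 to -0.08), Snai1 -0.32 (bounds -0.86 to 0.20) and Snai2 -0.53 (bounds -1.44 to 0.30). The 10 endothelial markers summed to 10330 and 9147 CPM, and 7 of the 10 pericyte and mural markers in the Dll1+ and 4 of 10 in the Dll1- library were detected, summing to 760 and 623 CPM. Pdgfrb, Notch3 and Des were at 0 UMIs in both. A sub-state of 39 Dll1+ cells, with Pdgfrb and Rgs5 among its leading genes, had been moved out of this class. The mural counts that remain are therefore not independent of the rule that made the class.

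Among Krt5-led cells 4 members were measured, of which Cdh2 was higher in the Dll1+ library and none was lower, with 15.9% of genes called higher and 8.44% lower. Cdh2 had 65 UMIs in 54 Dll1+ cells, against 5 UMIs in 5 Dll1- cells, a log2 ratio of 2.59 (bounds 1.87 to 4.83). Snai2 had a log2 ratio of 0.46 (bounds 0.16 to 0.78), Vim 0.34 (bounds 0.22 to 0.47) and Twist1 -0.23 (bounds -1.02 to 0.52). In sub-state 1, the only one with 50 or more cells of both libraries, Vim was lower in the Dll1+ cells with a log2 ratio of -1.31, and Cdh2 was not measured.

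The Krt5-led cells had 2 sub-states with high Vim and 2 with low Vim in both tumors. Vim was not held back from the clustering that made the sub-states, so they were not defined apart from it. In sub-state 0 (with Cnn1 and Mylk, genes of contractile cells; 194 Dll1+ and 12 Dll1- cells) it stood at 499 CPM (473 to 527) and 610 CPM (470 to 779). In sub-state 2 (Hp, Spp1 and Col12a1; 41 and 132 cells) it stood at 564 CPM (490 to 645) and 623 CPM (580 to 669). Sub-state 1 (Glul, Apcdd1 and Pou3f1; 71 and 118 cells) had 9.56 CPM (4.37 to 18.1) and 25.1 CPM (16.6 to 36.6), and sub-state 3 (Krt1, Sprr1b and Krt73; 23 and 50 cells) had 7.77 and 7.31 CPM. The intervals of the 2 high and the 2 low states did not overlap in either library. Snai2 did not follow that division: it was at 70.1 and 38.1 CPM in sub-state 0, 55.8 and 57.8 CPM in sub-state 2, 59.5 and 51.2 CPM in sub-state 1, and lower, at 7.77 and 7.31 CPM, in sub-state 3.

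Cdh2 lay mostly in the high-Vim states of the Dll1+ library, with 16.4 CPM (44 UMIs) in sub-state 0 and 53.2 CPM (20 UMIs) in sub-state 2. The Dll1- cells of sub-state 2, where most of the Dll1- Vim lay, had 2.48 CPM (3 UMIs). Of the 10 fibroblast markers, 9 were detected in Dll1+ (Pdgfra was at 0) and 10 in Dll1- Krt5-led cells. They summed to 1398 CPM in Dll1+ and 500.03 CPM in Dll1- Krt5-led cells, and pericyte and mural markers to 305 and 85.4 CPM. Their part in the Cdh2 difference was not tested.

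**Figure D5:**
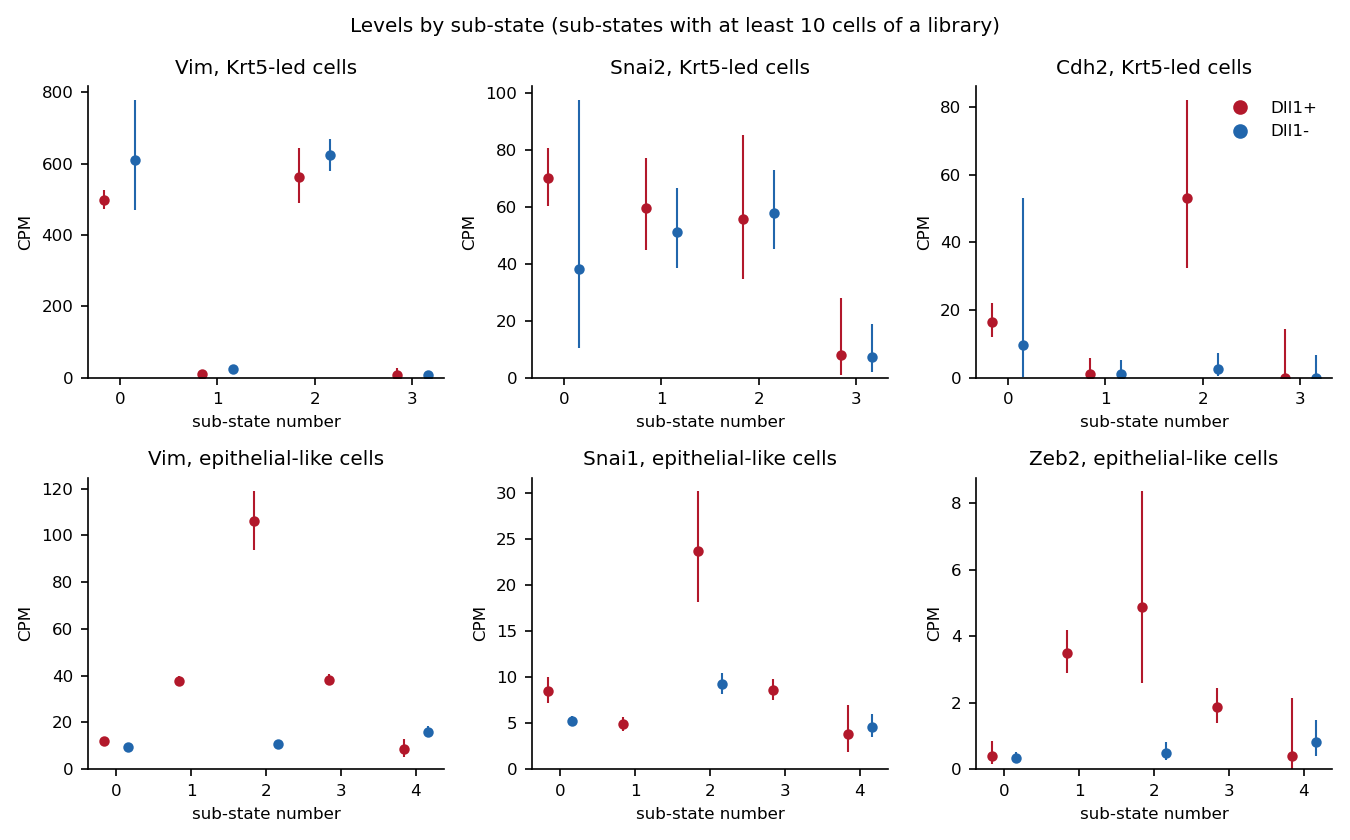
Levels in CPM (linear axes from 0) of 3 members in the sub-states of Krt5-led cells (top) and of 3 in those of epithelial-like cells (bottom), Dll1+ in red on the left and Dll1- in blue on the right. Bars are 95% Poisson intervals, and sub-states with under 10 cells of a library have no point for it. Vim separates Krt5-led sub-states 0 and 2 from 1 and 3, whereas Snai2 is low only in sub-state 3.

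Other genes of the pathway were counted from lists with the same rule. Of 10 genes of TGF-beta signaling, a known inducer of these factors, 1 was higher and 2 were lower in Dll1+ epithelial-like cells. Over all genes of these cells, 20.6% were called higher and 5.66% lower. The ligand gene Tgfb3 was higher there (60.6 against 25.6 CPM, log2 ratio 1.21) and in fibroblast-like cells (67.8 against 28.4 CPM, log2 ratio 1.23), while the receptor gene Tgfbr1 was lower in epithelial-like cells (8.90 against 18.4 CPM, log2 ratio -0.97). Smad7, a feedback inhibitor, went in opposite directions in vessel cells, at 43.7 against 105 CPM in pericyte-like cells (log2 ratio -1.25) and at 140 against 76.9 CPM in endothelial-like cells (log2 ratio 0.85).

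Among 12 partners and regulators, 2 were higher and 2 lower in Dll1+ epithelial-like cells (20.6% and 5.66% of all genes), with a median log2 ratio of 0.34. The Id proteins, which bind E proteins (the partners of Twist factors) and keep them from DNA, were divided. Id3 was at 96.2 CPM in Dll1+ and 394 CPM in Dll1- cells (log2 ratio -2.02) and Id1 at 19.7 and 75.0 CPM (log2 ratio -1.88). Id2 was at 238 and 92.2 CPM (log2 ratio 1.36), and the E protein gene Tcf4 at 99.5 and 43.4 CPM (log2 ratio 1.18). In pericyte-like cells Id2 was again higher (log2 ratio 1.80) and Id1 and Id3 were lower (-0.95 and -1.29). Fibroblast-like cells had none of the 12 called, beside 8.92% of all genes called higher and 5% lower.

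The 20 epithelial target and guardian genes showed 4 higher and 4 lower in Dll1+ epithelial-like cells, with a median log2 ratio of -0.31. Over all genes there, 20.6% were called higher and 5.66% lower. Cdh1, the classic target, was at 143 CPM in Dll1+ and 191 CPM in Dll1- cells (log2 ratio -0.42, between the folds). Grhl2, an epithelial factor that represses Zeb1 in human and mouse cells, was higher (33.1 against 16.0 CPM, log2 ratio 1.00), and so was the desmosome gene Dsp (85.3 against 30.5 CPM, log2 ratio 1.45). The tight junction gene Cldn4 (330 against 828 CPM, log2 ratio -1.33) and Ovol1, another guardian of the epithelial state (20.8 against 71.6 CPM, log2 ratio -1.73), were lower. In pericyte-like cells 9 of 14 measured genes of this list were higher in the Dll1+ library, beside 19.7% of all genes. The epithelial markers stood at 1143 against 727 CPM there, but most of them are genes of this same list. The class also held the sub-state led by Prpmp5 and Ehf, with 95 Dll1+ and 4 Dll1- cells.

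The mesenchymal effectors did not move in 1 direction across classes. Of these 18 genes, 9 were higher and 1 was lower in Dll1+ fibroblast-like cells, with Cdh11, a mesenchymal cadherin, at 195 against 59.7 CPM (log2 ratio 1.69) and Tnc, a matrix protein of remodeling tissue, at 123 against 35.1 CPM (log2 ratio 1.78). In pericyte-like cells none was higher and 5 of 16 were lower, among them Lox, a collagen crosslinking enzyme (51.5 against 133 CPM, log2 ratio -1.36). In epithelial-like cells 5 were higher and 2 lower, with Itga5, the fibronectin receptor subunit, at 15 against 0.921 CPM and Sparc at 36.2 against 8.60 CPM. In Krt5-led cells 8 of 15 were higher, led by Acta2, a contractile actin (3303 against 730 CPM, log2 ratio 2.18). The medians were 0.71, -0.39, 0.21 and 0.72 in fibroblast-like, pericyte-like, epithelial-like and Krt5-led cells, beside 0.04, 0.17, 0.20 and 0.12 over all genes. In the same order of classes, 8.92%, 19.7%, 20.6% and 15.9% of all genes were called higher, and 5%, 3.63%, 5.66% and 8.44% lower.

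Of 14 other mesenchymal transcription factors, 8 were measured in epithelial-like cells, where 2 were higher and 2 lower. Over all genes there, 20.6% were called higher and 5.66% lower. Sox9 was at 237 CPM in Dll1+ and 105 CPM in Dll1- cells (log2 ratio 1.16), and Klf4, an epithelial as well as mural factor, at 82.0 and 238 CPM (log2 ratio -1.52). In fibroblast-like cells Heyl, a Notch target gene, had 15.5 CPM (53 UMIs) against 3.79 CPM (16 UMIs), a log2 ratio of 1.78. Of 9 intermediate filament genes, 2 were higher and 4 lower in epithelial-like cells, with the basal keratin Krt14 at 312 against 124 CPM (log2 ratio 1.33) and the luminal keratin Krt8 at 2534 against 4427 CPM (log2 ratio -0.80). None of the 4 measured cadherins of the list was called in epithelial-like cells.

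The genes most like each member were found by Pearson correlation of log2(CPM + 1) over the 10 points that 5 classes and 2 libraries give, among 8652 genes. The points share libraries, depth and the classes' other differences, so these values are descriptions. Zeb1 was most like Stx2 (r = 0.995), Lmf2 and the Wnt receptor gene Fzd4, and Zeb2 like Col6a2 (r = 0.992), Meg3 and Pth1r. Prrx1 was most like Col6a1, Adamts2 and Meg3 (r = 0.996, 0.995 and 0.994), and Twist2 like Col1a1, Hoxc10 and Col3a1 (r = 0.994, 0.994 and 0.993). Snai1 was nearest to Myo1c (r = 0.985), Twist1 to Mitf (r = 0.986) and Vim to Sparc (r = 0.992). Snai2 (Gltp, r = 0.959) and Cdh2 (Ank2, r = 0.974) had the least close neighbours of the 9.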

How the data were processed

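Counts of UMIs per gene and barcode were deposited by the authors, made with Cell Ranger (version 4.0.0 per the file headers); the genome was mm10, per the submitters' processing notes. The sources used here give neither the annotation release nor the settings. Of the 32285 gene IDs, 32158 were found in GENCODE M21, used for positions. Every deposited barcode held at least 500 UMIs.

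Kept barcodes had 1000 UMIs or more, 500 genes or more and no more than 20% of UMIs from mitochondrial genes. The automatic threshold of scrublet (in scanpy 1.11.5) marked 0 barcodes in each library and so had not worked, and the top-scoring 0.8% per 1000 barcodes were removed, 896 Dll1+ and 989 Dll1- barcodes. Counts of both libraries were scaled to 10000 per cell and clustered together with leidenalg 0.10.2 (2000 variable genes, 30 components, 15 neighbours, resolution 0.6, no integration). A cluster took a name where 3 or more markers, making up 50% or more of a list, were each detected in 20% of its cells and no other class led its 10 leading genes. Clusters without a name were split again if they had 100 cells (resolution 0.5), and classes were divided into sub-states (resolution 0.4). Sub-states with at least 2 markers of 1 other class, and more of them than of their own, among their 10 leading genes were moved out. This took 39 Dll1+ cells out of the endothelial-like class. A fibroblast-like and a pericyte-like sub-state led by epithelial genes fell short of this rule and stayed, and 76 Dll1+ and 84 Dll1- cells stayed unnamed. The rule for names was set after the data were seen.

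Counts were summed per class and library and given as CPM. With 1 library per group there is no test. Intervals (95%) are exact Poisson, Clopper-Pearson or conditional binomial and cover counting error only. A count of 0 is read against 3 UMIs. Ratio calls were tested on simulated data. The steps ran in Python 3.11.15 with pandas 2.3.3, numpy 2.4.6, matplotlib 3.10.9 and scipy 1.17.1, and TMM factors came from edgeR 4.0.16 in R 4.3.3.

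The members and gene lists were chosen with earlier results of these data known. Named genes of a list are the 2 highest and 2 lowest log2 ratios per class, shown in part, and the 3 genes most like each member. The rule was extended to Krt5-led cells, and the genes described in Vim-rich epithelial-like cells, the microRNA host transcripts and the sub-state genes were chosen, after values were seen. Alternatives were other scalings, pseudocounts, count minimums, folds, cell filters, cluster settings and thinned counts, and leaving out groups of cells.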

Additional observations from a re-analysis of the deposited data

How the results depend on the processing

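No paired analysis was possible because each group is 1 library with no replicate number, and for the same reason no replicate could be left out. The Vim log2 ratio in epithelial-like cells, 1.57, was 1.33 with TMM factors, 1.28 with median-of-ratios factors, 1.08 with a pseudocount of 10 CPM, 1.36 in cells thinned to 2000 UMIs, 1.71 with shared sub-states weighted alike and also 1.71 in cells low in other-class markers, and 1.06 without cells of at least 10 Vim UMIs (an alternative added after seeing the data, as were no pseudocount and those that leave out pericyte-like or fibroblast-like cells). It was positive under all 13 alternatives run. The 3 shared sub-states were not alike. Vim stood at 106 against 10.6 CPM in sub-state 2, at 11.8 against 9.66 CPM in sub-state 0, and lower in Dll1+ cells of sub-state 4, at 8.39 against 16.0 CPM. Of the members, 5 were higher in epithelial-like cells, against 1 with a pseudocount of 10 CPM, 3 with a fold of 2 and 3 of only 4 measured in thinned cells, and 0 lower became 1 with no pseudocount (Prrx1). In fibroblast-like cells the 1 higher became 0 with a pseudocount of 10 CPM, with at least 100 UMIs and with a fold of 2. There, 0 lower became 1 with TMM and median-of-ratios factors, with no pseudocount, with doublets left in and in cells low in other-class markers (Zeb1 each time). Cdh2 turned to -0.06 there with shared sub-states weighted alike. In pericyte-like cells the 3 higher became 1 with TMM and median-of-ratios factors, a pseudocount of 10 CPM, a fold of 2 and thinned cells, and 6 with doublets left in, where cells were also clustered anew and Vim stood at 0.50 and not -0.38. In endothelial-like cells 0 higher became 2 without a filter on low counts, and 0 lower became 1 with TMM factors (Snai2). In Krt5-led cells the 1 higher became 5 without a filter on low counts, 2 with doublets left in, and 0 with at least 100 UMIs, thinned cells, shared sub-states or cells low in other-class markers, while 0 lower became 1 under both of the last named (Vim, turned to -1.31, and Twist1). Cdh2 was not measured under any of these 4. Of 448 single values under alternatives, 381 moved no further than the bounds of their ratio lie from the midpoint between them (for shares of cells, the width of the Dll1+ interval), 66 moved by more and 1 called value changed sign. Those bounds are of ratios without the added CPM and are wide for low members. The cause of these changes was not tested. With 1 tumor per group, differences between animals, digestions, sorts and libraries cannot be told apart from Dll1 status. The Dll1+ cells were shallower, and members at under 1 CPM in epithelial-like cells rest on few UMIs.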
